A study of Mus musculus with 24 samples.

Results

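The circadian clock genes measured here were 10 genes of the molecular clock: Arntl, Clock, Per1, Per2, Per3, Cry1, Cry2, Nr1d1, Nr1d2 and Dbp. They were chosen by name, through the RefSeq accession that the array gives for each probe. They were read by 19 probes of the 56605 on the array (10 of 45616 genes, where transcripts without a symbol count as genes). The tissue was distal colon of C57BL/6J mice, 7 weeks old on arrival. All 6 groups had been given the carcinogen azoxymethane once (AOM, 10 mg/kg) and then 3 rounds of colitis, set off with 1.5% dextran sulfate sodium (DSS) in the drinking water, so no untreated control entered the comparisons. Sham-operated males (M), sham-operated females (F) and ovariectomized females, F(OVX), ate a low-fat diet (LFD, 10% of energy as fat) or a high-fat diet (HFD, 45%) for 14 weeks, and were killed 75 days after AOM. Each group had 4 arrays, while the methods name 5 mice per group, taken for a body weight near the group mean. The mice lived under 12 h of light and 12 h of dark. The hour at which each colon was taken is not given in the sources used here, which matters for genes whose RNA follows the time of day.

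The mammalian clock is a loop of transcription that runs in nearly every cell with a period of about a day. ARNTL, also called BMAL1, and CLOCK bind DNA together and switch on the Per, Cry, Nr1d and Dbp genes, and the PER and CRY proteins then return to the nucleus and block ARNTL and CLOCK. NR1D1 and NR1D2, known as REV-ERB alpha and beta, repress Arntl, so that in most tissues Arntl RNA peaks when Dbp and Nr1d RNA is low. In the colon the clock is known to time epithelial renewal, motility and absorption, and feeding can reset it.

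The sequences below show the motifs by which these factors are known to reach clock genes, in RefSeq promoter windows of the GRCm38.p6 mouse assembly. Windows of 300 bases, from 250 bases before the transcription start to 50 after it, were held for 9 of the 10 genes (13 windows, since some genes have several starts). Both strands were searched for the E-box CACGTG, bound by ARNTL and CLOCK, for its variant CACGTT, for the D-boxes TTATGTAA and TTACGTAA, bound by DBP and its relatives, and for the REV-ERB and ROR element TAGGTCA. None of these motifs contains another. The E-box was in the windows of Per1 and Cry1, against 7.15% of all 32851 windows. The variant was in those of Cry1, Cry2 and Nr1d1 (4.68% of all windows), the D-box in that of Per3 (1.06%) and the REV-ERB and ROR element in that of 1 Arntl start (2.61%). The first 3 lines give the 250 bases upstream of the start of Per1 (chr11:69098699-69098948, plus strand), Cry1 (chr10:85185055-85185304, minus strand) and Per3 (chr4:151044666-151044915, minus strand), and the last gives 30 bases around the Arntl match (chr7:113207529-113207558, plus strand). All are 5′ to 3′ on the strand of the gene, and capitals mark the motif matches.
Per1: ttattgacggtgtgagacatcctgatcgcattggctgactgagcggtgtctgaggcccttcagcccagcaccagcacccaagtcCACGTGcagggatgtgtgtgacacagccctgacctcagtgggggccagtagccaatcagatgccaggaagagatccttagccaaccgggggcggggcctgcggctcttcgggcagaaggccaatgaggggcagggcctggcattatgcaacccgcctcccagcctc
Cry1: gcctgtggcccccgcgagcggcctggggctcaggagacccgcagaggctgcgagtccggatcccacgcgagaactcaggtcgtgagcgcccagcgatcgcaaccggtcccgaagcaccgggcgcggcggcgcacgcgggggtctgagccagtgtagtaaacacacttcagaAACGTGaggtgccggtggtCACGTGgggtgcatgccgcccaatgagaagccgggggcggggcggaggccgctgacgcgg
Per3: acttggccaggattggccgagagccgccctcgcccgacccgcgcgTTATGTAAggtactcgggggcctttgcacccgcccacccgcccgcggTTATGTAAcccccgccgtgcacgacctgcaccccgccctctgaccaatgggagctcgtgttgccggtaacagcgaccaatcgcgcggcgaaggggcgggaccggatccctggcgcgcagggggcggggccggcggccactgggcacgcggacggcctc
Arntl: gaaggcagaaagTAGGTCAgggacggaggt
The Per1 E-box began 166 bases before the start. In Cry1 the E-box began 60 bases and the variant, here on the other strand as AACGTG, 79 bases before it. Per3 held the D-box at 205 and again at 158 bases before its start. The Arntl element lay 31 bases after the start.

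Each array, labelled with 1 color, was taken to hold RNA of 1 mouse, and values are given as quantile-normalized log2 signals, so a difference of 1 is a doubling. The share of probes well above background ran from 40.5% to 61.9% per array, no spot was saturated, and arrays of the same group correlated at 0.938 to 0.988. The number of arrays limits the precision throughout. Each slide held the 8 arrays of 1 sex or surgery, so sex and ovariectomy cannot be told apart from slide, and diet within a slide cannot be told apart from the row of the slide. The colonocyte and goblet cell markers were well above background on all arrays, from Krt20 at 13.98 to 15.97 to Muc2 at 16.08 to 17.18. Hoxb13, a gene of the distal colon, was at 12.58 to 14.79 on 22 arrays, but at 2.18 in M + LFD replicate 1 and at 5.04 in M + LFD replicate 2. Several results are also given without these arrays. In bulk tissue, fewer cells of a type and less RNA per cell cannot be told apart.

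Most of the 10 clock genes differed widely between mice of the same group, and many did so together, in the same or in opposite directions. The brightest probe of each gene was well above background on all 24 arrays, except that of Cry1 on 22. Dbp, a transcription factor that is a direct output of ARNTL and CLOCK, had the widest within-group spread of the 10, with a pooled SD of 1.29 log2 units. That spread lay at the 99.5th percentile of the 16830 genes well above background on every array, whose median SD was 0.30. Per3, Nr1d1, Arntl and Cry2 had pooled SDs of 0.98, 0.90, 0.80 and 0.74, and Per1, Nr1d2 and Per2 had 0.71, 0.68 and 0.57. These 7 stood between the 88.9th and the 98.4th percentile. Cry1, a repressor of the loop that was too dim on 2 arrays to be ranked, had an SD of 0.64. Clock, the partner of ARNTL, was the exception by its brightest probe, with an SD of 0.24 and a percentile of 34.2. Its second probe, also well above background on all 24 arrays, had SDs from 0.11 in F(OVX) + LFD to 0.57 in M + HFD.

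Dbp shows the spread on single arrays. It was at 10.50, 12.62, 9.99 and 9.43 in M + LFD replicates 1 to 4, and at 12.51, 10.99, 10.998 and 13.98 in M + HFD. In F + LFD it was at 9.90, 11.28, 13.17 and 12.86, and in F + HFD at 11.15, 12.40, 12.23 and 12.89. In the OVX females it was at 11.16, 13.84, 11.29 and 13.11 on LFD and at 11.91, 12.64, 10.65 and 13.39 on HFD. The 6 groups overlapped, and within M + LFD, M + HFD and F + LFD the highest array exceeded the lowest 9.11-fold, 7.94-fold and 9.65-fold. The narrowest group was F + HFD, with a 3.34-fold range.

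Arntl, the activator of the loop, ran the other way. It was at 9.69, 8.13, 9.23 and 9.76 in M + LFD and at 8.16, 9.01, 9.23 and 7.58 in M + HFD. In F + LFD it was at 9.43, 8.59, 6.92 and 7.38, and in F + HFD at 8.44, 7.41, 8.25 and 7.09. In the OVX females it was at 8.99, 7.502, 7.97 and 7.37 on LFD and at 8.93, 7.88, 9.08 and 7.998 on HFD. In M + LFD, replicate 2 had the lowest Arntl and the highest Dbp, and in F + LFD replicate 3 had the lowest Arntl and the highest Dbp while replicate 1 had the reverse. Over the 24 arrays, Arntl and Dbp deviated from their group means in opposite directions on 23.

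**Figure D1:**
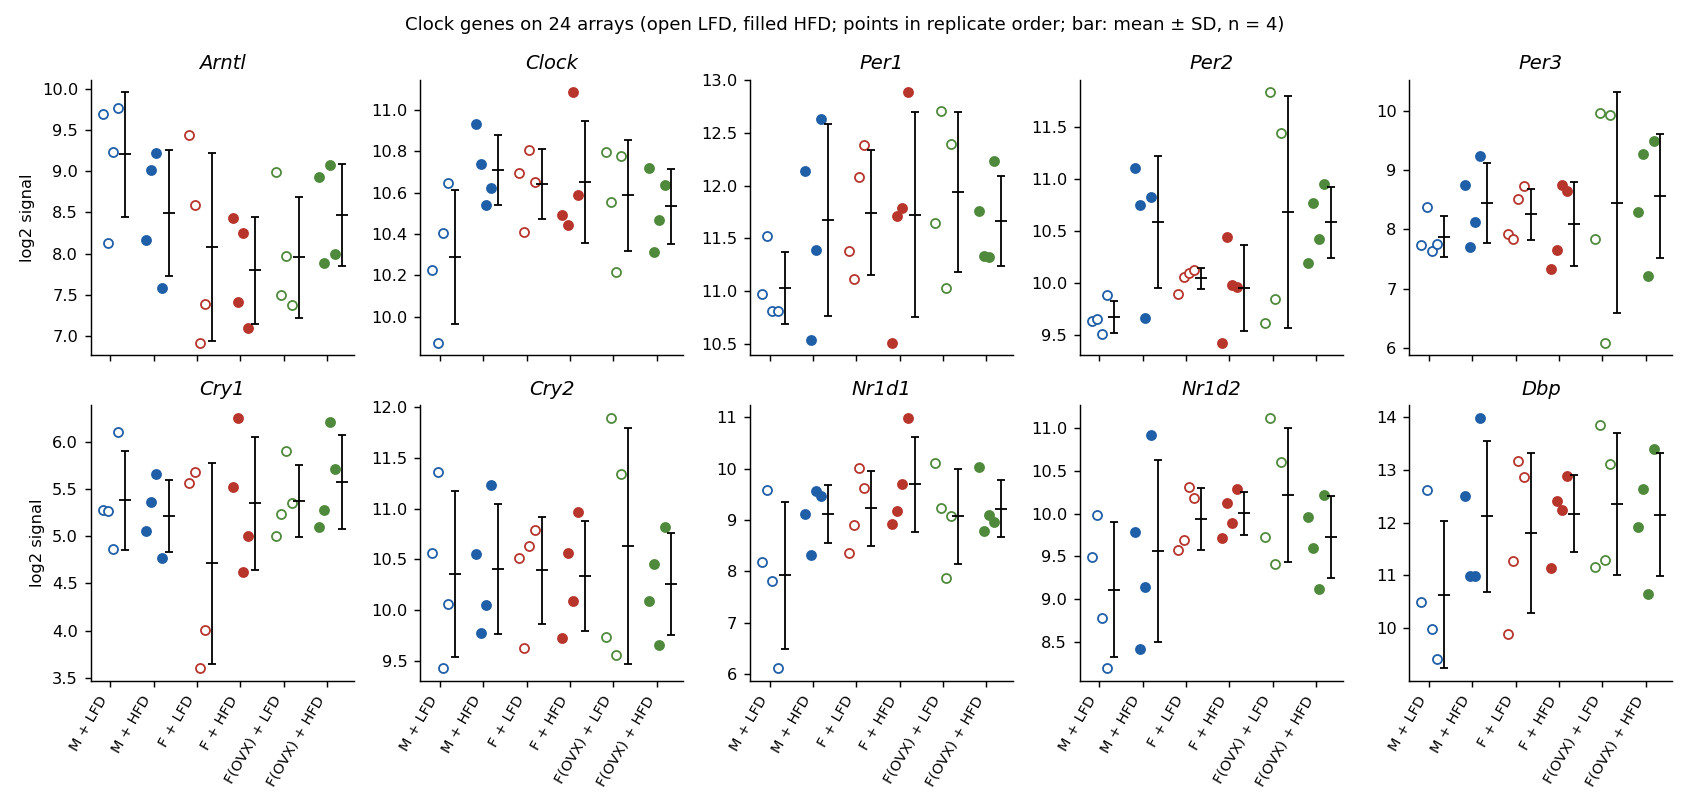
Quantile-normalized log2 signal (vertical axes) of the 10 clock genes in the 6 groups, with 1 point per array and the mean ± SD of 4 arrays. The groups overlap in most genes, and over all arrays Dbp spans 9.43 to 13.98 and Clock only 9.88 to 11.08.

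Pairs of clock genes were compared over the 24 arrays after the group means were taken out, by permuting arrays within groups 100000 times (two-sided). Of the 45 pairs, 25 had a Benjamini-Hochberg adjusted p under 0.05, of which 15 were positive and 10 negative. All 25 also passed by Spearman's rho, and 24 of them kept their sign on all 3 slides. By rho alone, Per2 with Per1 (adjusted permutation p = 0.0472), Cry1 with Per1 (0.0379) and Per2 with Per3 (0.0310) passed as well. In females, arrays in the same slide column deviated together, which the permutation within groups does not take up, and with that column as a replicate block 5 pairs passed. Arntl and Dbp had r = -0.91 and rho = -0.91, each with a permutation p of 1e-05, the smallest that the permutations can give (adjusted p = 7.5e-05 for r and 9e-05 for rho). Within slides r was -0.95 for males, -0.96 for females and -0.83 for OVX females (exact permutation p = 0.0104, 0.00174 and 0.0226). It was -0.91 without the 2 arrays farthest from the median of Arntl, and -0.91 without M + LFD replicates 1 and 2. On the fitted line, Dbp fell by 1.47 log2 units for each unit by which Arntl rose. The largest gap between neighbouring deviations was 0.42 for Arntl, in a range from -1.16 to 1.35. For Dbp it was 0.40, in a range from -1.90 to 1.98. These deviations pool groups centred on different means, which can fill gaps, so they cannot show whether the arrays form separate clusters.

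**Figure D2:**
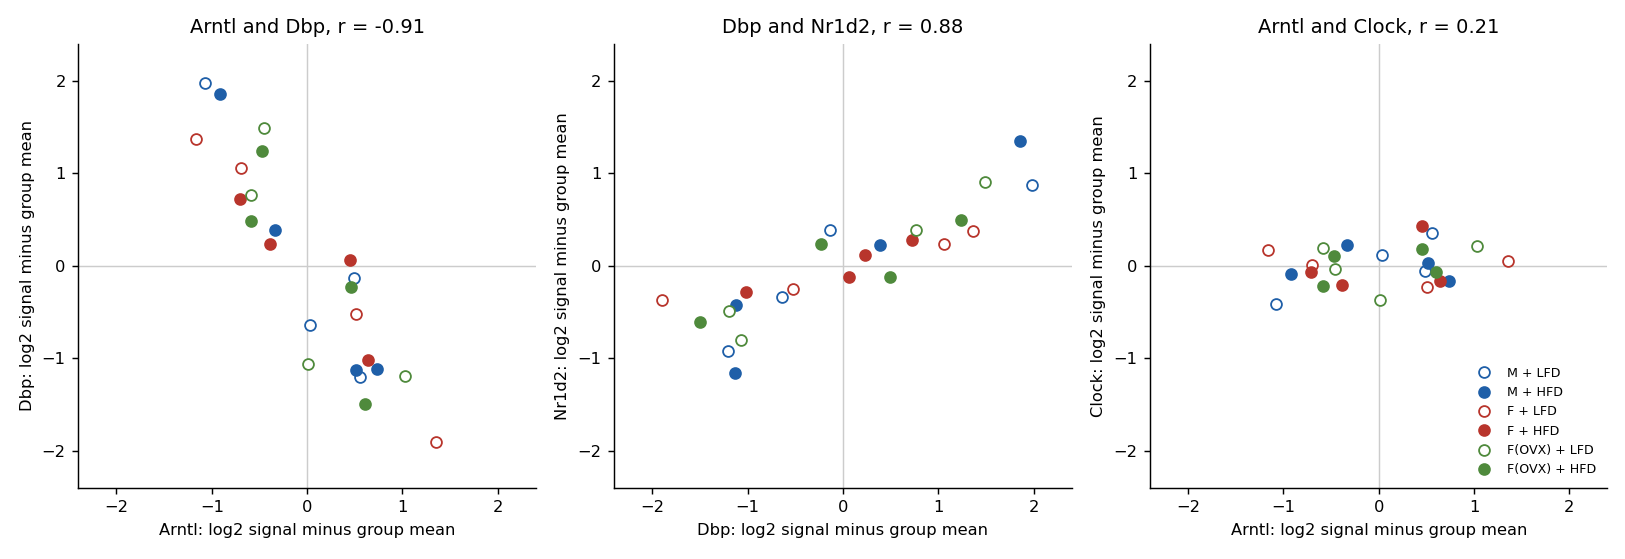
Deviation of each of the 24 arrays from its group mean, in log2 units on both axes, for Arntl and Dbp, Dbp and Nr1d2, and Arntl and Clock, with colors for the 3 slides. Arntl and Dbp lie along a falling line (r = -0.91), Dbp and Nr1d2 along a rising one (r = 0.88), and Arntl and Clock form no line (r = 0.21).

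Nr1d2, Cry2, Per1 and Per3, all activated by ARNTL and CLOCK, moved with Dbp. Nr1d2, a repressor of Arntl, had r = 0.88 with Dbp (rho = 0.91, adjusted permutation p = 7.5e-05). Cry2, which blocks ARNTL and CLOCK with the PER proteins, had r = 0.82 (rho = 0.83, adjusted p = 0.00025), and Per1 had r = 0.80 (rho = 0.81, adjusted p = 7.5e-05). Per3 had r = 0.75 (rho = 0.78, adjusted p = 0.000112). All 4 correlated positively with Dbp on each slide, from 0.54 for Cry2 in females to 0.95 for Cry2 in OVX females. Without M + LFD replicates 1 and 2, r with Dbp was 0.88 for Nr1d2, 0.79 for Cry2, 0.80 for Per1 and 0.77 for Per3. Nr1d2 was at 9.49, 9.98, 8.78 and 8.19 in M + LFD, and so was highest on the replicate with the most Dbp. Among themselves, Per1, Per3, Cry2 and Nr1d2 had r from 0.71 to 0.84.

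Per2 and Nr1d1 were tied less tightly to Dbp. Per2, a repressor in the loop, had r = 0.58 (rho = 0.58, adjusted permutation p = 0.0173), with 0.34, 0.50 and 0.86 on the slides of males, females and OVX females. Nr1d1, the other REV-ERB gene, had r = 0.53 (rho = 0.50, adjusted p = 0.0334), with 0.71, 0.82 and -0.05 on the 3 slides. The OVX females thus gave no relation of Nr1d1 with Dbp, and the difference between slides was not tested. Without M + LFD replicates 1 and 2, r with Dbp was 0.65 for Per2 and 0.40 for Nr1d1. The correlation of Per2 with Cry2, 0.69 (adjusted p = 0.0298), dropped to 0.40 without the F(OVX) + LFD replicates 2 and 4, the arrays farthest from the median of Per2, and that with Per3, 0.70 (adjusted p = 0.0597), to 0.33. These Per2 relations rest on those arrays. Per2 was at 11.83 and 11.44 there, against 9.62 and 9.85 in the other arrays of the group.

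Cry1 moved opposite to Dbp. It had negative correlations with Nr1d1 (r = -0.60, rho = -0.65, adjusted permutation p = 0.0120), Dbp (r = -0.55, adjusted p = 0.0334), Per3 (r = -0.46, adjusted p = 0.0134) and Nr1d2 (r = -0.45, adjusted p = 0.0216). Its correlations with Per1 (r = -0.48, adjusted p = 0.0580), Cry2 (r = -0.28, adjusted p = 0.222) and Arntl (r = 0.48, adjusted p = 0.121) did not pass by r. Its lowest values, 3.60 and 4.01 in F + LFD replicates 3 and 4, were on the arrays with the highest Dbp of that group, and r with Dbp was -0.38 without them. Arntl itself correlated negatively with Nr1d2 (r = -0.69, adjusted p = 0.00131), Per1 (r = -0.68, adjusted p = 0.00302), Cry2 (r = -0.68, adjusted p = 0.00246), Per3 (r = -0.55, adjusted p = 0.00958) and Per2 (r = -0.53, adjusted p = 0.00751). With Nr1d1 its r was -0.40 (adjusted p = 0.121), from -0.62 and -0.80 in males and females to 0.54 in OVX females. Without M + LFD replicates 1 and 2 it was -0.29. Clock, by its brightest probe, passed with no other member, its r ranging from -0.36 with Cry1 to 0.30 with Per3.

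**Figure D3:**
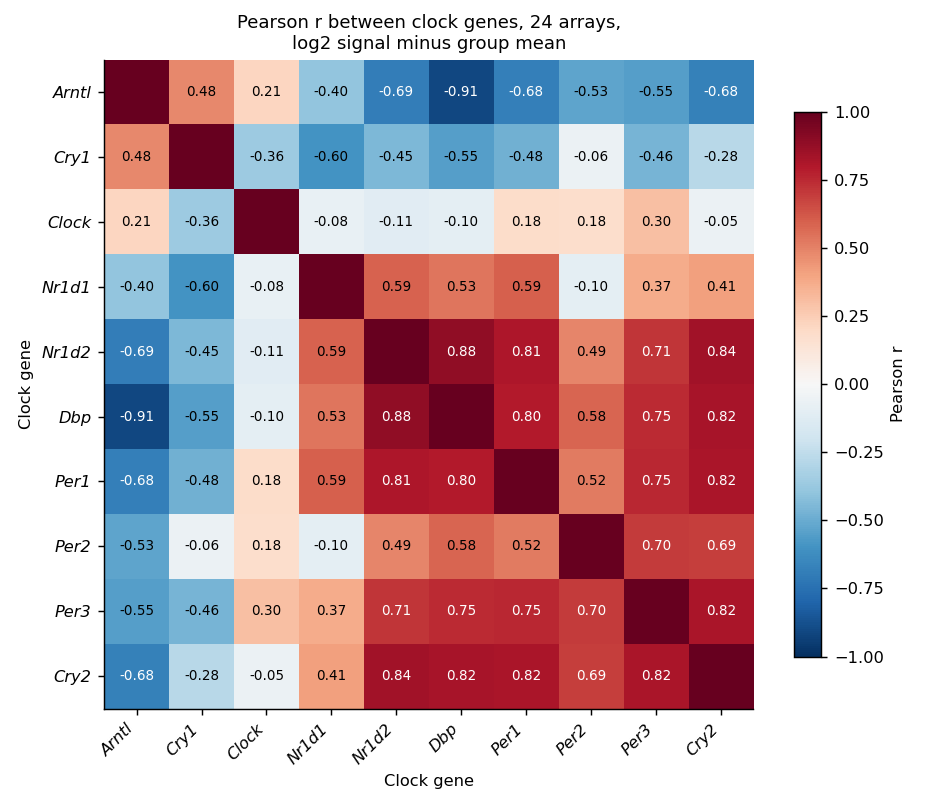
Pearson's r between all pairs of the 10 clock genes over 24 arrays, on deviations from group means, on a color scale from -1 to 1. Dbp, Nr1d2, Cry2, Per1 and Per3 form a block of r from 0.71 to 0.88, and Clock has r from -0.36 to 0.30. With the block, Arntl has r from -0.55 to -0.91, and Cry1 more weakly from -0.28 to -0.55.

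**Figure D4:**
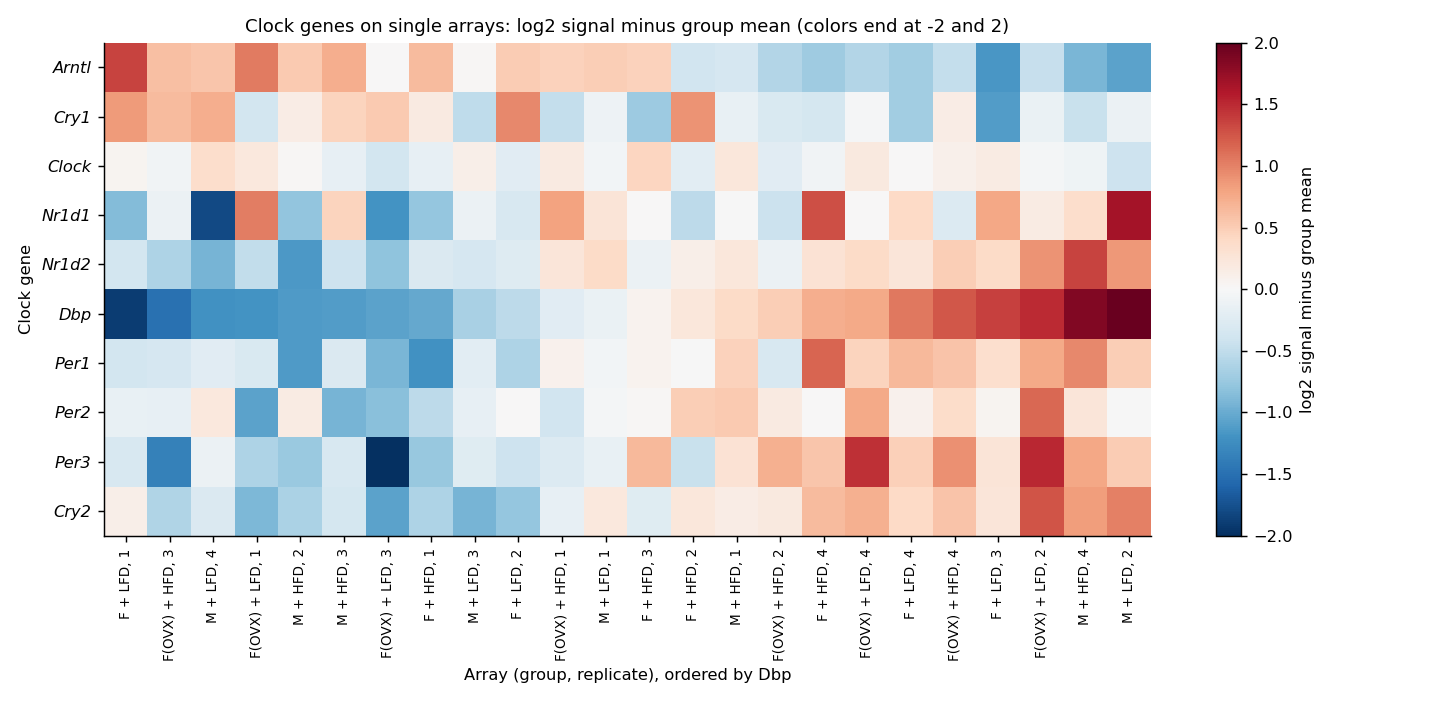
Deviation from the group mean, in log2 units by color, of the 10 clock genes (rows) on the 24 arrays (columns), with arrays in the order of their Dbp deviation, from -1.90 to 1.98. Arntl changes from high to low along the same order. Each group has arrays towards both ends because the deviations are taken from its own mean.

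Probes for the same gene mostly gave the same pattern. The second probes of Dbp and Nr1d2, well above background on all 24 arrays, correlated with the brightest at 0.995 and 0.97, and the other Arntl probes, above background on 23, at 0.90 and 0.86. The second Per3 probe, above background on 14 arrays, gave 0.88, and the second Cry1 probe, on 2 arrays, 0.59. The Clock probes disagreed. The second, well above background on all 24 arrays, had r = 0.19 with the brightest, and the remaining one, above background on 3, had -0.06. The small spread of Clock and its lack of relations with other members therefore hold for its brightest probe only. The second Per2 probe was above background on 4 arrays (r = 0.19). Per2 and Cry1 therefore rest on 1 probe each, as do Cry2, Nr1d1 and Per1, which had no other.

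Genes outside the 10 were ranked by the same deviations among 16829 others, as a description without a test. Most like Dbp was Tef (r = 0.97), which encodes a D-box-binding relative of DBP, with 0.94, 0.98 and 0.999 on the slides. Nr1d2 came next, followed by a transcript listed without a symbol (r = 0.88), Fam76a (0.87) and another unnamed transcript (0.84). Most opposite to Dbp were Arntl (-0.91), Ccdc77 (-0.89) and Mef2d (-0.89). Most like Arntl were Banp (0.84), Mef2d (0.83), an unnamed transcript (0.82), Ccdc77 (0.82) and Map11 (0.81), and most opposite were Dbp, Tef (-0.85) and Fam76a (-0.83). Nfil3, which encodes a repressor at the same D-box sites as DBP, had r = -0.79 with Dbp and 0.64 with Arntl. Usp2, a deubiquitinase gene known as a clock output, had r = 0.82 with Dbp.

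Levels of other gene lists were set beside Arntl, Dbp and Per1, 48 relations in all. The 14 lists held markers of colonocytes, goblet cells, smooth muscle, adipocytes, B and plasma cells, T cells, enteric nerves, myeloid cells, endothelium and fibroblasts, proliferation genes, distal and proximal Hox genes, and glucocorticoid-responsive genes, and the share of probes above background and Hoxb13 were added. None reached an adjusted permutation p under 0.05, the lowest being 0.577 by Pearson's r and 0.327 by Spearman's rho. The summed glucocorticoid-responsive level had r = 0.51 with Per1, itself known to respond to glucocorticoids (permutation p = 0.0140), and 0.23 without the 2 farthest arrays. Proliferation genes had r = -0.51 with Dbp (p = 0.0303), and goblet cell markers had -0.45 with Dbp (rho = -0.56, p = 0.0481 for r and 0.00912 for rho) and 0.43 with Arntl (rho = 0.54, p = 0.0426 and 0.0136). Hoxb13 had r = -0.22 with Dbp and 0.07 with Arntl, and 0.27 and -0.16 without the 2 arrays where it was low. The part of these levels in the clock gene differences was not tested.

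Most of the variation of the clock genes lay within groups, as it did for most genes. With 4 arrays in each of 6 groups, most of it lies there even where groups do not differ, so the shares are a description only. The share of the sum of squares that lay within groups was 79.0% for Dbp, 68.8% for Arntl, 67.7% for Nr1d1 and 96.8% for Cry2, with 74.8% as the median of all genes. Arntl was highest in M + LFD (9.20 ± 0.75, SD, n = 4) and lowest in F + HFD (7.80 ± 0.65), and Nr1d1 had these groups in the reverse order, at 9.69 ± 0.92 in F + HFD and 7.93 ± 1.43 in M + LFD. Dbp was highest in F(OVX) + LFD (12.35 ± 1.34) and lowest in M + LFD (10.63 ± 1.39). For Per2 the order was F(OVX) + LFD (10.69 ± 1.11), M + HFD (10.59 ± 0.63), F(OVX) + HFD (10.59 ± 0.34), F + LFD (10.05 ± 0.10), F + HFD (9.95 ± 0.41) and M + LFD (9.67 ± 0.16). In the orders of all 10 genes, the only neighbours that separated by the exact permutation test were F(OVX) + HFD and F + LFD for Per2 (p = 0.0286, the smallest that 4 against 4 arrays allow), and the other neighbours had p from 0.0857 to 1. Neighbours in an order by mean are close by construction, so their lack of separation says little. The highest and lowest groups, picked for their distance, had exact permutation p from 0.0571 for Per1 to 0.571 for Cry2. It was 0.0857 for Arntl and Nr1d1 and 0.143 for Dbp. None of these p-values was adjusted for the number of pairs tested, and the share of all genes that separate so was not computed. The groups that separated for Per2 differ in surgery, diet and slide at once.

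The effect of the HFD was compared within each sex or surgery. The thresholds were those of the methods, a change of at least 1.5-fold and an unadjusted p under 0.05, but with limma in place of the methods' test, and Benjamini-Hochberg adjusted p-values over all genes tested stand beside the calls. In males, 1 of the 10 clock genes was called, Per2, while 4.3% of the 20516 genes tested were called. Per2 was at 9.63, 9.66, 9.52 and 9.89 in M + LFD and at 11.11, 10.75, 9.66 and 10.83 in M + HFD. Of the HFD-fed males, 3 lay above all LFD-fed males and replicate 3 lay among them. The difference was 0.91 on the log2 scale (SE 0.29, 1.88-fold, limma p = 0.0137, Benjamini-Hochberg adjusted p = 0.8004, exact permutation p = 0.0571), and it ranged from 0.74 to 1.22 when 1 array was left out. Without M + LFD replicates 1 and 2 together, Per2 differed by 0.88 and was not called.

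The other male differences were not called. Dbp differed by 1.48 (SE 0.84, exact permutation p = 0.2), Nr1d1 by 1.19 (SE 0.65, exact p = 0.171) and Arntl by -0.71 (SE 0.46, exact p = 0.229). Per1 differed by 0.64 (SE 0.42), Per3 by 0.57 (SE 0.33), Nr1d2 by 0.45 (SE 0.57) and Clock by 0.42 (SE 0.19, exact p = 0.0857), while Cry1 and Cry2 differed by -0.17 and 0.05. The median of the 10 was 0.51, against 0.01 over all genes tested. It is a description without a test, since many of the 10 varied together between arrays. Some of these rested on single arrays. Nr1d1 was at 8.19, 9.58, 7.81 and 6.12 in M + LFD and at 9.12, 8.33, 9.57 and 9.47 in M + HFD, and replicate 2 of M + LFD, the array with the high Dbp, was the highest array of all 8. That array also had the lowest Arntl of its group, so leaving it out widens these differences by construction. Without it, Dbp (2.14), Nr1d1 (1.75) and Arntl (-1.07) were called beside Per2. Without M + LFD replicates 1 and 2, Dbp (2.41) and Nr1d1 (2.16) were called. In the latter setting 847 of 20516 genes were called, and none had an adjusted p under 0.05. Without M + HFD replicate 2, which had low Per1 (10.54) and Per3 (7.70), Per1 (1.02) and Per3 (0.82) were called.

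**Figure D5:**
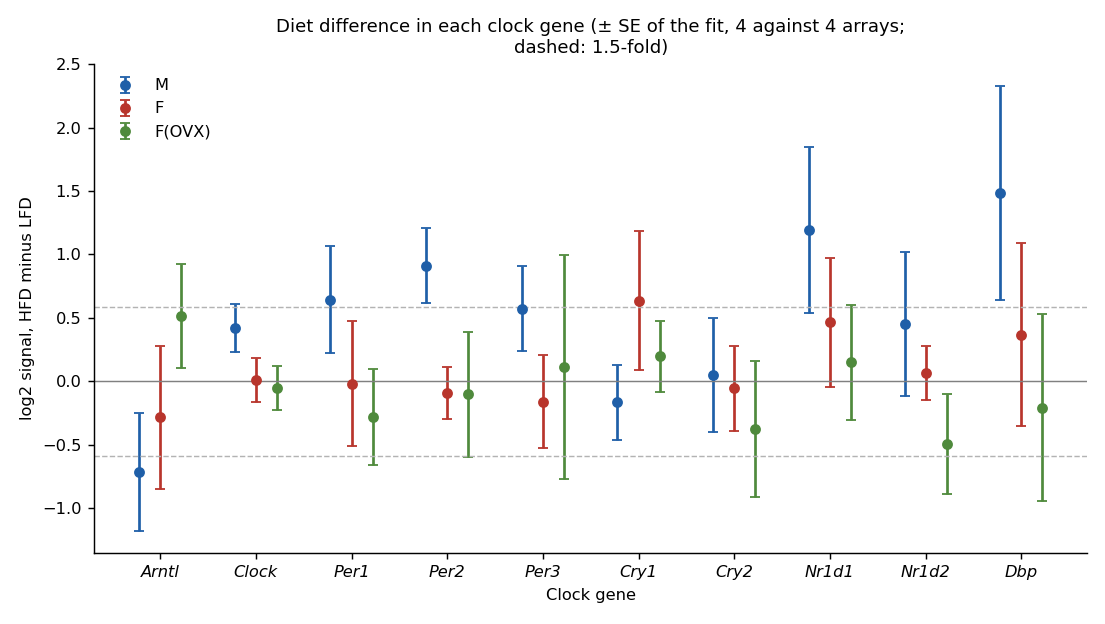
Difference between HFD and LFD (log2, points with SE bars, 4 against 4 arrays) of the 10 clock genes in males, females and OVX females, with dashed lines at a 1.5-fold change. Per2 in males (0.91) was the only difference called, and the differences in females and OVX females lie between -0.49 and 0.64.

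In females none of the 10 clock genes was called (1.2% of 22085 genes tested), and in OVX females none of the 10 was called (2.19% of 19211). The largest difference in females was that of Cry1, 0.64 (SE 0.55, exact permutation p = 0.371), from 4.71 ± 1.06 on LFD to 5.35 ± 0.70 on HFD. Cry1 was above background on all 4 HFD arrays but on 3 LFD arrays, so it was tested only through the group where it was higher. It was called when the slide column was fitted as a replicate block, where 586 of 22085 genes were called, against 264 without the block. The largest in OVX females was that of Arntl, 0.51 (SE 0.41, exact permutation p = 0.286), which was 0.86 and called without F(OVX) + LFD replicate 1. None of the 10 had an unadjusted limma p under 0.05 in either. Per2 differed by -0.09 (SE 0.21) in females and by -0.10 (SE 0.49) in OVX females. The median of the 10 was -0.0029 in females and -0.08 in OVX females. No brightest probe had groups that did not overlap, which held for 2.6%, 1.9% and 2.3% of all genes tested in the males, the females and the OVX females. The second Clock probe had such groups in OVX females, at 8.88 ± 0.45 on HFD and 9.38 ± 0.11 on LFD (exact permutation p = 0.0286), whereas the brightest Clock probe differed by -0.05.

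The diet effects were also compared with each other. Between males and females the effect on Per2 differed by 1.005 (SE 0.55, limma p = 0.0802, adjusted p = 0.975, n = 24 arrays), so that none of the 10 was called (2.95% of 22383 genes). Per2 was called in this comparison without M + HFD replicate 3 (1.31), with the replicate block and when only the male and female arrays were fitted. Between OVX females and females none was called (1.52%), and Per2 differed by -0.0086 (SE 0.55). Averaged over the 3 diet effects none was called (0.773%), the lowest p being that of Nr1d1, 0.60 (SE 0.35, limma p = 0.0978, n = 24 arrays), which was 0.79 and called without M + LFD replicate 2.

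Averaged over diets, males had more Arntl than females by 0.91 (SE 0.38, limma p = 0.0254, Benjamini-Hochberg adjusted p = 0.207, n = 24 arrays) and less Nr1d1, a difference of -0.94 (SE 0.43, p = 0.0393, adjusted p = 0.251). These 2 of the 10 were called, with 5.57% of 22383 genes called and 2.6% at an adjusted p under 0.05. Males and females overlapped for both genes, since Arntl reached 9.43 in females and fell to 7.58 in males. Arntl was not called without M + LFD replicate 1 (0.83), M + LFD replicate 4 (0.82), M + HFD replicate 2 (0.82), M + HFD replicate 3 (0.79), F + LFD replicate 3 (0.71), F + LFD replicate 4 (0.79) or F + HFD replicate 4 (0.79). Nr1d1 was not called without M + LFD replicate 3 (-0.92) or 4 (-0.64), M + HFD replicate 1 (-0.94) or 2 (-0.81), F + LFD replicate 3 (-0.81) or 4 (-0.87), or F + HFD replicate 3 (-0.94) or 4 (-0.72), nor with the replicate block or with the male and female arrays fitted alone. Nr1d2, at -0.63 (limma p = 0.0639, n = 24 arrays), was called without M + LFD replicate 2 (-0.78) or M + HFD replicate 4 (-0.86). The remaining 7 lay between -0.61 for Dbp and 0.26 for Cry1.

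OVX females had more Per2 than females by 0.64 (SE 0.27, limma p = 0.0301, Benjamini-Hochberg adjusted p = 0.780, n = 24 arrays), 1 of the 10 called where 2.15% of genes were called. Per2 was at 9.90, 10.06, 10.10 and 10.13 in F + LFD and at 9.43, 10.44, 9.98 and 9.96 in F + HFD. In the OVX females it was at 9.62, 11.83, 9.85 and 11.44 on LFD and at 10.20, 10.77, 10.42 and 10.95 on HFD. The HFD-fed OVX females lay above all F + LFD arrays, which differ from them in diet and slide too, but overlapped F + HFD. The LFD-fed OVX females were divided. The call was lost without F + HFD replicate 1 (0.55), F(OVX) + LFD replicate 2 (0.45), F(OVX) + LFD replicate 4 (0.51), F(OVX) + HFD replicate 2 (0.61) or F(OVX) + HFD replicate 4 (0.57), and at 0.54 after the normexp background correction. None of these 10 clock genes reached a Benjamini-Hochberg adjusted p under 0.05 in any of the 8 comparisons, a level that 2.6% of all genes reached between males and females and 0% in the other 7. The comparisons share arrays, and the 4 against females share the female ones.

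Of 27 further clock-related genes listed, 26 had a probe and 21 to 23 were tested. In males 1 of 22 was called, near the 4.3% of all genes tested. It was Bhlhe40, which encodes a repressor that competes at E-boxes. It rose from 10.21 ± 0.37 on LFD to 11.18 ± 0.63 on HFD, by 0.96 (SE 0.33, limma, Benjamini-Hochberg adjusted p = 0.8004). None of 22 was called in females (1.2% of all genes) and none of 21 in OVX females (2.19%). Bhlhe40 was also called in the difference of the diet effects of males and females, at 1.01 (limma p = 0.0349, adjusted p = 0.975, n = 24 arrays). It was 1 of 23 there, with 2.95% of all genes called. Averaged over diets, 2 of 23 were called between males and females, where 5.57% of all genes were called, and 1 of them is not reported here. The other, Noct, a clock-output gene, was higher in males than in females by 0.59 (limma p = 0.0343, adjusted p = 0.237, n = 24 arrays). None of 23 was called in the other 3 comparisons, where 0.773% to 2.15% of all genes were called. Sirt1 differed between the diet effects of OVX females and females by -0.43, and Bhlhe40 differed by 0.53 between OVX females and females in level, each with an unadjusted limma p under 0.05. Ciart, which encodes a repressor of the loop, was above background on 14 arrays, at 2.95 to 7.56, and Bhlhe41 and Fbxl21 on none.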

How the data were processed

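RNA from distal colon of 24 mice was measured on 1-color Agilent arrays, with 4 arrays in each of 6 groups taken from the labels. The deposited files hold the scanner output of Agilent Feature Extraction 11.0.1.1, in which the gProcessedSignal intensity is background-subtracted by the authors' software and not normalized between arrays. Control spots were dropped, outlier spots set to missing, and log2 of the deposited intensity was quantile-normalized over the 24 arrays, as the authors did by their methods. Spots of a probe were averaged, and the brightest probe stood for a gene. Symbols came from the RefSeq accession of each probe (32994 of 56605 probes, 58.3%). Where none was found, each transcript listed by the array counted as a gene of its own. The 45616 genes thus hold 22911 symbols, and shares and ranks over all genes include the unnamed transcripts.

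Genes were tested with limma 3.58.1 (lmFit and eBayes, R 4.3.3) where all 4 arrays of a group had the probe well above background. Diet was compared within 8 arrays, and the other comparisons used 24 arrays and 6 group means. Calls needed a 1.5-fold change and an unadjusted p under 0.05, with Benjamini-Hochberg adjustment over all genes tested. Exact permutation tests were two-sided over 70 assignments. Co-variation used deviations from group means and 100000 permutations within groups (numpy 2.4.6, scipy 1.17.1). P-values measure the spread between these arrays, each taken to be of 1 mouse. The 75th percentile of the intensity ran from 125 to 669 per array, which sets how well dim probes such as Cry1 were measured. The steps were tested on simulated data.

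The clock genes, the further clock-related genes and the marker lists were chosen with earlier results of these data known. Genes named in the text were the 10 members, listed clock-related genes that were called or ranked as most similar (except 1 that is not reported here), the 5 genes most like and 3 most opposite to Arntl and to Dbp, and Hoxb13. Nfil3, Usp2, Ciart and Sirt1 were added after their values were seen. Colon markers named with a range were also chosen after seeing the values. Alternatives covered normalization, background correction, filters, other probes, left-out arrays, the methods' t-test and the replicate number, which is the slide column. Same-numbered arrays deviated together in females (correlations of 0.26 to 0.58), but not in every pair of males (-0.26 to 0.01) or OVX females (-0.09 to 0.33).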

Additional observations from a re-analysis of the deposited data

Results flagged for a closer look

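Of 60 groups of 4 values checked, 10 clock genes in 6 groups each, 1 held a value far from the rest by Dixon's test. Per3 in M + LFD replicate 2 was at 8.38, while the other 3 arrays of the group lay between 7.64 and 7.75, so that the gap was 0.847 of the whole range. Chance marks about 1 in 20 groups of this size, which is more than the number found. The same array had the highest Dbp, Nr1d1, Nr1d2, Per1 and Cry2 of its group, the lowest Arntl, and a Hoxb13 signal of 5.04, and the part of Hoxb13 in the Per3 value was not tested.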

How the results depend on the processing

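Over 1860 clock gene differences recomputed under 17 to 33 alternatives per comparison, 24 lost their call, 17 gained one and none that was called changed sign, while 127 that were called in neither setting did. The number of the 10 clock genes called became 2 in males (from 1), 1 for the average diet effect (from 0) and 3 for males against females in level (from 2) without M + LFD replicates 1 and 2, 1 in females with the replicate block, 1 for males against females in diet effect both with the replicate block and with the groups compared fitted alone, 1 for males against females in level under those same settings, where Nr1d1 lost its call, and 0 for OVX females against females in level after normexp. Without M + LFD replicates 1 and 2, 847 of 20516 genes were called in males. For the average and for males against females in level, they were 277 and 1024 of 22383. With the replicate block, 586 of 22085 genes were called in females, 1150 of 22383 for the male and female diet effects and 1327 in level. With the groups fitted alone the last 2 were 686 and 1252, and after normexp 115 were called for OVX females against females. Leaving out 1 array gave 1 to 4 for male diet effects, 0 to 0 for female ones, 0 to 1 for those of OVX females, 0 to 1 for the difference of diet effects of males and females, 0 to 0 for that of OVX females and females, 0 to 1 for the average, 0 to 3 for males against females and 0 to 1 for OVX females against females.

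The further clock-related genes called became 2 in females with every probe tested. For the male and female diet effects they were 2 with the replicate block, 2 without M + LFD replicates 1 and 2, 0 without the dim arrays (F(OVX) + LFD replicate 3, F + HFD replicate 2) and 0 with the groups alone. For males against females they were 2 in the main fit, 1 after normexp, 1 without the dim arrays, 4 with the groups alone, and 3 each with scaling to the 75th percentile, every probe tested and the replicate block, and for OVX females against females 2 with every probe and 2 without the dim arrays. Leaving out 1 array gave 1 to 2 in males, 0 to 1 in females, 0 to 2 for the male and female diet effects, 1 to 4 for males against females, 0 to 2 for OVX females against females and 0 to 0 for the other comparisons. By the methods' t-test, 489, 125 and 209 of all genes were called for diet in males, females and OVX females, against 882, 264 and 421 with limma, and the clock genes called stayed at 1, 0 and 0. The cause of these changes was not tested.

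The 25 correlated pairs became 5 with the replicate block, made from 12 differences between same-numbered arrays, with r = -0.88 for Arntl and Dbp (permutation p = 0.00097). Within single slides of 8 arrays they became 2 for males, 0 for females and 0 for OVX females, where fewer arrays enter. The smallest exact permutation p possible there is 0.00174, at which 1 pair alone cannot pass the adjustment over 45 pairs. The low counts therefore cannot show that co-variation is absent within slides. Leaving out 1 array, chosen after seeing the data as an alternative, gave 23 to 30 pairs and r of Arntl and Dbp from -0.93 to -0.89. Dim signal limits Cry1, above background on 22 arrays, and the weaker probes of Clock, Per2, Per3 and Cry1.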
